A study of Mus musculus with 12 samples.

Results

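The 41 genes described here are the antioxidant and glutathione genes of the mouse, from superoxide dismutases and peroxiredoxins to the enzymes that make glutathione and the regulators of the NRF2 axis. They were picked by gene name, and all 41 names were found among the 35999 rows of a table of gene expression in LSK cells. LSK cells are bone marrow cells that carry Sca-1 and KIT but none of the markers of mature lineages, a population that includes hematopoietic stem cells and multipotent progenitors. RNA-seq was made from LSK cells of 12 mice, with 6 libraries labelled WT and 6 labelled KO, where KO mice lack Fancg, a member of the Fanconi anemia core complex that acts in the repair of DNA crosslinks. Cells were depleted of mature bone marrow cells, sorted by lineage markers, CD117 and Sca-1, and libraries were made from enriched mRNA with the CATS RNA-seq Kit v2. The labels give neither age nor sex nor strain, no treatment is named, and the knockout is constitutive in the whole animal, so that effects that arise in other cells of the mouse cannot be told apart from those in LSK cells.

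Reactive oxygen species form in mitochondria and at oxidases, and cells remove them in layers. Superoxide dismutases turn superoxide into hydrogen peroxide, which catalase, glutathione peroxidases and peroxiredoxins reduce to water. The peroxiredoxins are recycled by thioredoxin and the peroxidases by glutathione, and both draw electrons from NADPH of the pentose phosphate pathway. The transcription factor NRF2 (Nfe2l2) is held at a low level by KEAP1 and, when released, binds antioxidant response elements beside many of these genes, where BACH1 acts as a repressor. Hematopoietic stem cells are known to be sensitive to oxidative damage, and cells with a defective Fanconi pathway are known for their sensitivity to oxygen.

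The core of the antioxidant response element, TGACNNNGC, where N is any base, was searched on both strands of the RefSeq promoters, which run from 250 bases before to 50 bases after each gene's start (GRCm38.p6). Of all 32851 promoters, 12.4% held it, and of the 52 promoters of members 9 did (17.3%). Counted by gene, 36 of the 41 members had a promoter by symbol and 9 of these (25%) had the core in at least 1 promoter, against 14% of all symbols. The members with the core were Sod1, Prdx1, Txnrd1, Srxn1, Gclm, G6pdx, Pgd, Nfe2l2 and Mgst1. A match is only a run of letters, and binding was not measured. The windows that follow are those of the 7 genes among these that passed the filter on low values, shown because their levels are described here, and the capitals mark the core, read on the strand on which it matches.
Sod1: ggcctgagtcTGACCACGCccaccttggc
Prdx1: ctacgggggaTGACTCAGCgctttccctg
Txnrd1: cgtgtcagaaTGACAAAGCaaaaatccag
Gclm: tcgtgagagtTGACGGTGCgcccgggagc
G6pdx: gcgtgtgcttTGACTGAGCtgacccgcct
Pgd: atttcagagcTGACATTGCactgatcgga
Nfe2l2: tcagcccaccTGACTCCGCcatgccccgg
The Sod1 window lies at chr16:90220696-90220724 on the minus strand, opposite to the gene. Those of Prdx1 (chr4:116685456-116685484, minus strand), Txnrd1 (chr10:82859104-82859132, minus strand), Gclm (chr3:122245413-122245441, minus strand) and G6pdx (chrX:74428919-74428947, plus strand) are also opposite to their genes. Those of Pgd (chr4:149166061-149166089, minus strand) and Nfe2l2 (chr2:75704885-75704913, minus strand) are on the strand of the gene. The core of Pgd begins at base 4 of the transcript, counting its RefSeq start as 1, whereas the cores of the other 6 genes lie upstream of the RefSeq start of that promoter. For Txnrd1 this was 1 of 3 RefSeq promoters and for Pgd 1 of 2. Both windows lie inside the gene as annotated in GENCODE M21 (Txnrd1 82833951 to 82897712, Pgd 149149991 to 149166771). So does the window of G6pdx (gene at 74409483 to 74429194).

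The deposited values, here called signal, look like estimated reads scaled by a factor of each library, and summed to between 1576080 and 2672920 per library. Judged from the spacing of the lowest values, the libraries held roughly 1235090 to 2471270 reads. KIT transcripts (Kit, 283 to 435) and Cd34 (528 to 728) were well expressed in every library, whereas Ly6a, the gene of the Sca-1 antigen used in the sort, stood at 4.84 to 17.4. Fancg itself had a signal of 4.76, 8.59 and 24.1 (lowest, median and highest) in WT and of 4.46, 7.91 and 14.5 in KO libraries. The labels overlapped (two-sided exact permutation test, p = 0.636), so the targeted gene does not check the labels in these data. Transcripts of 4 Y-linked genes summed to 26.6 in WT replicate 3 and to 49.7 in KO replicate 7, and to 189 to 435 in the other libraries. A list of 10 neutrophil and granule genes, led by Mpo, summed to 2195 in WT replicate 6 and to 2376 in KO replicate 6, and to 344 to 1063 in the other 10 libraries.

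The comparison of KO with WT asks whether loss of Fancg goes with a different level of these genes. No member separated the labels. Of the 41 members, 32 passed the filter of a mean signal of 10, and 0 of them had an adjusted p under 0.05 (limma, Benjamini-Hochberg over 8887 genes), as had 0% of all genes tested. At an unadjusted p under 0.05, 1 member was called, against 3.67% of all genes, and it was Pgd, which was lower in KO (1.69% of all genes were called lower in KO). The labels overlapped in all 41 members, and 0.09% of the genes tested had labels that did not overlap.

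The fold changes of the 32 members ran from -0.40 to 0.55 on the log2 scale, with 19 below 0 and 13 above. Their median was -0.08, beside 0.0031 over all genes tested, and it was 0.0092 without WT replicate 6. The error was small enough to bound most of these differences. The 95% interval of the fold change lay within 1 of 0, that is within a change of 2-fold on the log2(signal + 1) scale, in 29 of the 32 members and in 83.4% of all genes tested. The other members were Keap1, Bach1 and Msrb1. An interval within 0.5 of 0 was reached by 5 members, and the median SE of the members was 0.214. The sign of the fold change was the same in 19 of 32 members under every alternative tried, and Glrx5 (-0.02) changed sign with quantile normalization (0.05) and with the libraries rescaled to their total without Lars2 (0.03). As these are bulk samples, a lower share of a cell type and less RNA per cell cannot be told apart.

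**Figure D1:**
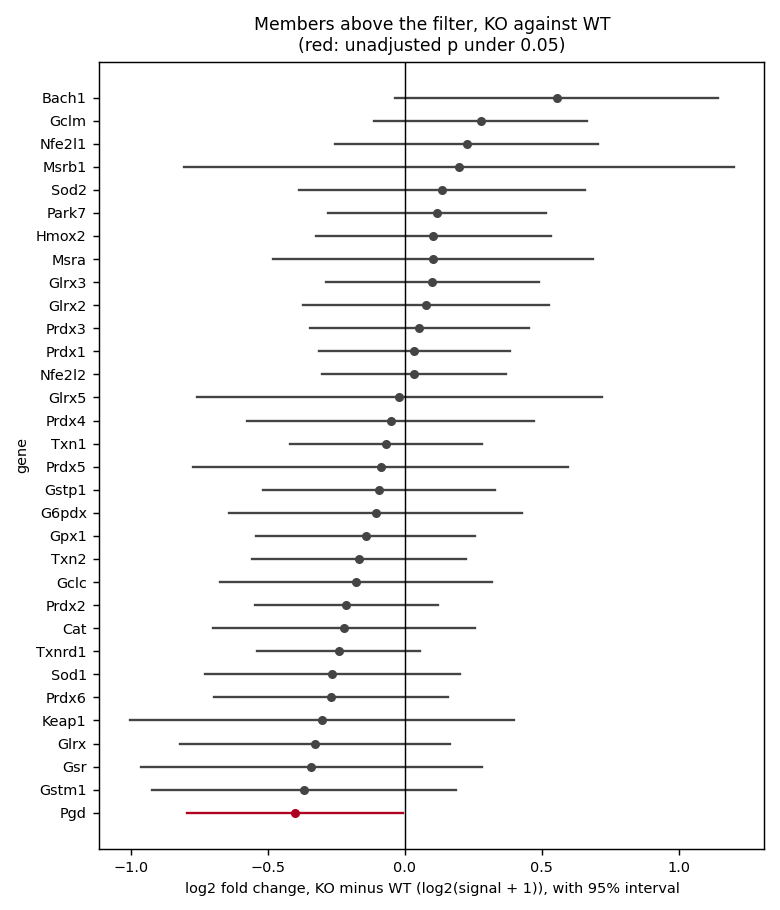
Log2 fold change (KO minus WT, on log2(signal + 1)) of the 32 members above the filter, with points for the estimate and lines for the 95% interval, and in red the gene with an unadjusted p under 0.05. Pgd alone lies wholly below 0, and the intervals of Bach1, Keap1 and Msrb1 reach beyond 1 on one side.

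Levels of different genes were compared per kilobase of the median coding transcript in GENCODE M21. Sod1, the cytosolic superoxide dismutase, was the most abundant member with a mean of 503 per kilobase, from 296 to 787 over the 12 libraries. Gpx1, the main cytosolic glutathione peroxidase, followed with 352 per kilobase, and its libraries (204 to 474) overlapped with those of Sod1. Txn1 (119) and Prdx1 (116) came next and did not differ beyond their spread. At the other end, Srxn1, which restores overoxidized peroxiredoxins, had a mean of 0.191 per kilobase and Hmox1, the inducible heme oxygenase, 0.694. The lengths of some transcripts decide their place in this order. By the longest coding transcript, Prdx1 fell from place 4 to place 9 and Gclm from place 10 to place 29, whereas Sod1, Gpx1 and Txn1 held the first places by either length.

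**Figure D2:**
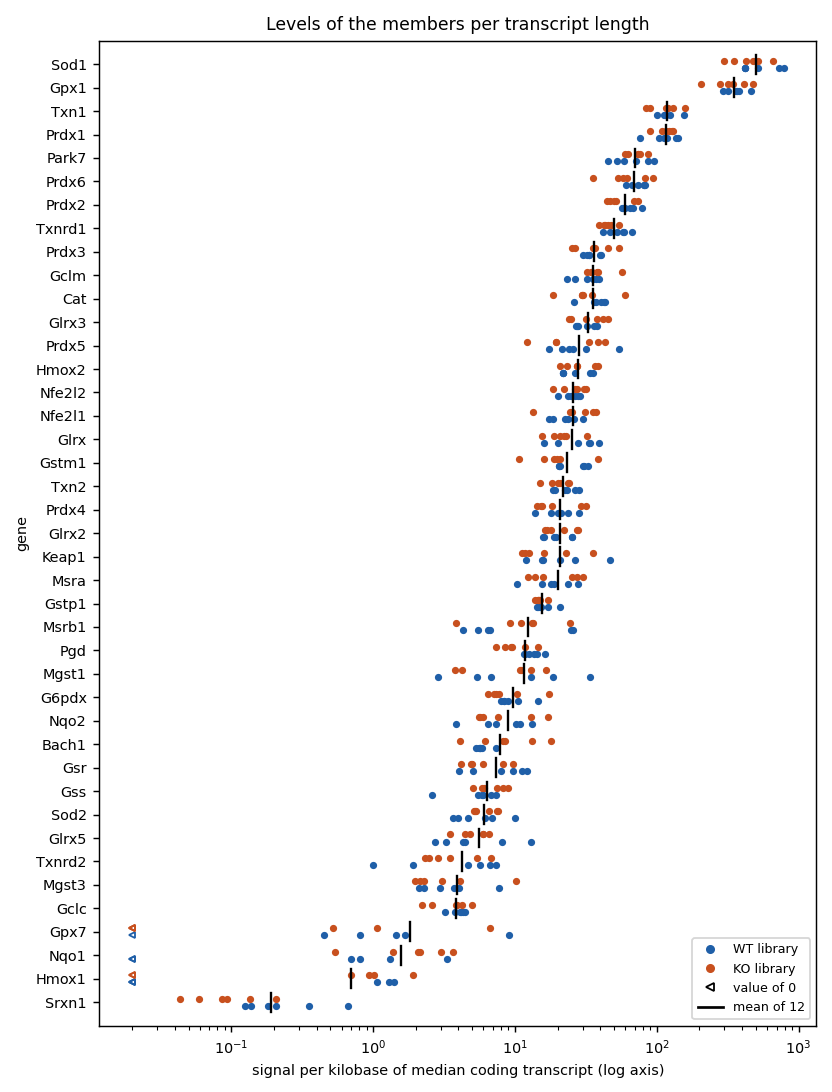
Signal per kilobase of median coding transcript (log axis) of all 41 members, with 1 point per library (blue WT, orange KO), open triangles for a value of 0 and a black bar for the mean of 12 libraries. Sod1 and Gpx1 stand highest at 503 and 352 per kilobase, and the points of both labels overlap in every row.

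Of the enzymes that remove superoxide and peroxide, 0 of 4 tested genes passed the threshold of an unadjusted p under 0.05, with fold changes from -0.26 to 0.14. Sod1 (chromosome 16, 90220754 to 90226329 in GRCm38) had a signal of 268, 302 and 505 in WT libraries and of 190, 291 and 426 in KO libraries (lowest, median and highest). The highest values of both labels were those of replicate 6, and the lowest those of KO replicates 2 and 3, with wide overlap between the labels. The log2 fold change of Sod1 was -0.26, with a 95% interval from -0.73 to 0.20. Gpx1 showed a smaller difference of -0.14 (-0.54 to 0.26), and Cat, the catalase of peroxisomes, one of -0.22 (-0.70 to 0.26). Cat was among the genes that depended on single libraries, some of them low in Y-linked transcripts. Without WT replicate 3 and KO replicate 7 its fold change was -0.50 (limma, unadjusted p = 0.0146), and without KO replicate 7 alone it was -0.40 (limma, unadjusted p = 0.0499). It shrank to -0.07 without KO replicate 2, the lowest of KO (limma, unadjusted p = 0.729). Sod2, the mitochondrial dismutase, was at 0.14 (-0.39 to 0.66). Other annotated genes share 26.7% of its stretches of 31 bases, so its reads are partly uncertain.

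Among the 6 peroxiredoxins, 0 passed the threshold, and the fold changes ran from -0.27 to 0.05. Prdx1 (chromosome 4, 116685544 to 116700822), a cytosolic peroxiredoxin, had the highest level of the family per kilobase of the median coding transcript. By the longest coding transcript Prdx2 was highest. Prdx1 had a signal of 50.3, 76.2 and 93.4 in WT and of 59.7, 79.1 and 86.4 in KO libraries. The labels lay on top of each other, with a log2 fold change of 0.03 (-0.31 to 0.38). Prdx6, which also reduces phospholipid peroxides, and Prdx2, abundant in blood cells, had the lowest fold changes of the family, at -0.27 (-0.70 to 0.16) and -0.21 (-0.55 to 0.12). KO replicate 2 had the lowest Prdx2, Prdx5 and Prdx6 of the 12 libraries. Prdx3 of mitochondria was at 0.05 (-0.35 to 0.45) and Prdx4 of the endoplasmic reticulum at -0.05 (-0.57 to 0.47). Prdx5 had the largest spread between libraries of one label in the family, an SD of 0.61 on the log2 scale. Of the stretches of 31 bases of Prdx1 and Prdx2, 15.4% and 16.5% occur in other genes.

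In the thioredoxin system, 0 of 3 tested genes passed the threshold, and the 3 fold changes were -0.07 for Txn1, -0.17 for Txn2 and -0.24 for Txnrd1. Txn1 (chromosome 4, 57943373 to 57956411), the cytosolic thioredoxin, had a signal of 106, 121 and 163 in WT and of 88.6, 124 and 166 in KO libraries. Its highest value in each label was again that of replicate 6. Txnrd1, the cytosolic reductase that reloads thioredoxin from NADPH, had one of the narrowest intervals (-0.54 to 0.05; limma, unadjusted p = 0.102). It had 138, 182 and 223 in WT and 131, 147 and 180 in KO libraries, so that all 6 KO libraries lay below the WT median. Without WT replicate 4, the lowest of WT, the fold change of Txnrd1 was -0.31 (limma, unadjusted p = 0.0413). It was -0.18 without WT replicate 5, the highest of WT (limma, unadjusted p = 0.235). Txnrd2 of mitochondria and Srxn1 were below the filter.

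The glutaredoxins use glutathione to reduce protein disulfides, and Glrx3 and Glrx5 carry iron-sulfur clusters. Of the 4 genes, 0 passed the threshold. Glrx3 (chromosome 7, 137437614 to 137468594) had 45.6, 50.7 and 63.8 in WT and 40.7, 58.5 and 76.6 in KO libraries, with a log2 fold change of 0.10 (-0.29 to 0.49). The KO libraries spanned the whole WT range on both sides. Glrx, the cytosolic glutaredoxin, had a fold change of -0.33 (-0.82 to 0.17), and without WT replicate 3, the lowest of WT, it was -0.47 (limma, unadjusted p = 0.0442). It was -0.22 without WT replicate 6, the highest of WT (limma, unadjusted p = 0.355).

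Glutathione is made by glutamate-cysteine ligase, a dimer of the catalytic subunit Gclc and the modifier subunit Gclm, and by glutathione synthetase (Gss), and is reduced again by Gsr. None of the 3 tested genes passed the threshold. The subunits of the ligase had fold changes of opposite sign, 0.28 (-0.11 to 0.67) for Gclm and -0.18 (-0.67 to 0.32) for Gclc, with intervals that overlap. Gclm (chromosome 3, 122245557 to 122270732) had 23.2, 33.9 and 39.1 in WT and 32.5, 36.7 and 57.5 in KO libraries. The highest KO value came from replicate 6, while the next of KO, 38.5, lay inside the WT range. Gsr, the reductase, was at -0.34 (-0.96 to 0.28), with 10.7, 23.6 and 32.6 in WT and 11.1, 14.7 and 25.9 in KO libraries.

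Pgd (chromosome 4, 149149991 to 149166771), the 6-phosphogluconate dehydrogenase that makes NADPH in the pentose phosphate pathway, was the member called at an unadjusted p under 0.05. It had a signal of 25.5, 29.1 and 36.1 in WT and of 16.2, 21.0 and 32.0 in KO libraries (lowest, median and highest). Replicates 3, 4, 5 and 7 of KO lay below every WT library, while KO replicates 2 and 6 lay within the WT range. Its mean was 29.6 ± 3.88 (SD, n = 6) in WT and 22.6 ± 5.68 (SD, n = 6) in KO, a log2 fold change of -0.40 (SE 0.186, 95% interval -0.80 to -0.0062). The unadjusted p was 0.0469 and the adjusted p 0.9996 (limma over 8887 genes), so Pgd did not pass the correction. Over all divisions of the 12 libraries into 6 and 6, the two-sided exact permutation test gave p = 0.0325, unadjusted. This test was run on Pgd because limma had called it, so it is no separate evidence, and the other 31 members above the filter were not tested in this way. The call was lost without any one of WT replicates 2, 5, 6 and 7 or KO replicates 3, 4, 5 and 7, and with the libraries rescaled to their total without Lars2 (fold change -0.35; limma, unadjusted p = 0.274). It was also lost without WT replicate 3 and KO replicate 7 (fold change -0.42; limma, unadjusted p = 0.0678) and was kept without both libraries numbered 6 (fold change -0.45; limma, unadjusted p = 0.0320). G6pdx, which catalyses the first step of the same pathway, was at -0.11 (-0.64 to 0.43), with 15.7, 16.9 and 28.5 in WT and 12.6, 14.8 and 34.2 in KO libraries. Other genes share 23.6% of its stretches of 31 bases, and its copy G6pd2 alone shares 12.6%.

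**Figure D3:**
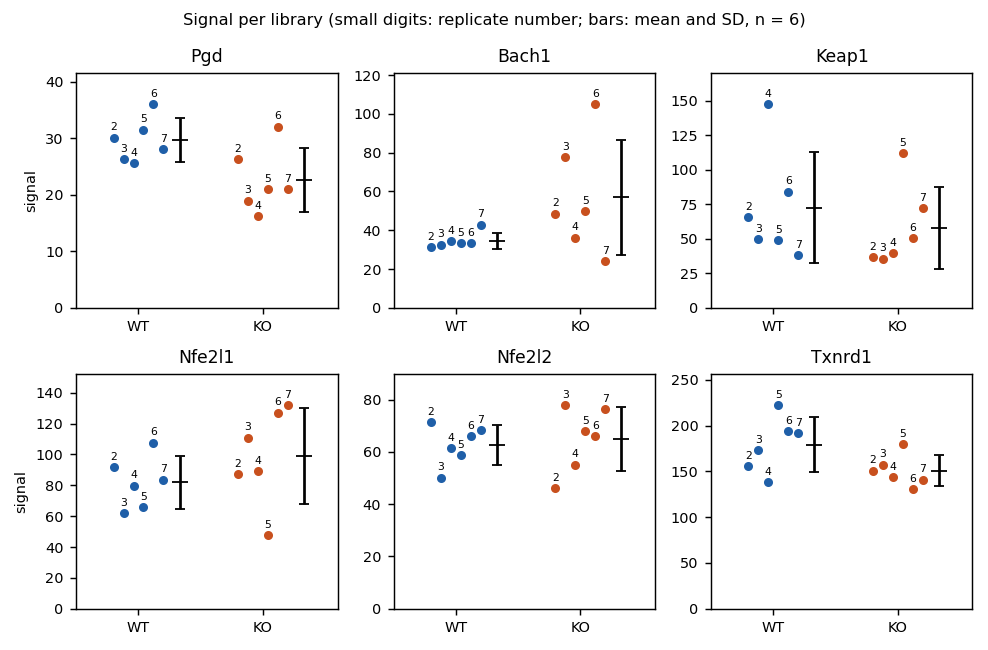
Signal of Pgd, the 4 NRF2 axis regulators and Txnrd1 in every library (blue WT, orange KO, small digits for the replicate number), with the mean and SD of 6 libraries beside each label. Bach1 is tight in WT (31.1 to 42.9) and wide in KO (24.1 to 105), and KO replicates 3, 4, 5 and 7 of Pgd lie below every WT library.

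Of the 4 regulators, 0 passed the threshold, and they differed most in how far libraries of one label lay apart. Nfe2l2 (chromosome 2, 75675513 to 75704641), the gene of NRF2, had 50.2, 63.8 and 71.6 in WT and 46.2, 66.9 and 78.1 in KO libraries. The labels overlapped over most of their range, with a log2 fold change of 0.03 (-0.30 to 0.37). Nfe2l1 (chromosome 11, 96817414 to 96829968), the related factor that drives proteasome genes, had 61.9, 81.7 and 108 in WT libraries, and between 47.9 and 132 in KO libraries with a mean of 99.1 ± 31.2 (SD, n = 6). KO replicates 3, 6 and 7 lay above the WT range and KO replicate 5 below it, for a fold change of 0.22 (-0.26 to 0.71). Over the 12 fits without 1 library, the fold change of Nfe2l1 ran from 0.13 to 0.42, and without KO replicate 5 it passed an unadjusted p of 0.05. Keap1 (chromosome 9, 21229730 to 21239361), which marks NRF2 for degradation, had 37.9, 57.7 and 148 in WT and 35.6, 44.8 and 112 in KO libraries. WT replicate 4 and KO replicate 5 stood above the others, and with an SD of 0.67 on the log2 scale within labels the fold change of -0.30 had an interval that reached just below -1 and up to 0.40. Without WT replicate 4 the fold change was -0.07, and without KO replicate 5 it was -0.52.

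Bach1 (chromosome 16, 87698945 to 87733346), the heme-regulated repressor at antioxidant response elements, had the highest fold change of the members above the filter. Its signal was 31.1, 33.2 and 42.9 in WT and 24.1, 49.1 and 105 in KO libraries. In KO, 5 libraries lay above the WT median and replicate 7 lay below every WT library, and the SD on the log2 scale was 0.16 in WT and 0.74 in KO. The log2 fold change was 0.55 (-0.04 to 1.14; limma, unadjusted p = 0.0636). It was 0.34 without both libraries numbered 6 and 0.76 without KO replicate 7 (limma, unadjusted p = 0.00582), so KO replicates 6 and 7 decide its size. Without KO replicate 4 it also passed an unadjusted p of 0.05.

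Of the 4 heme oxygenases and quinone reductases, among them the classical NRF2 targets Hmox1 and Nqo1, 1 was expressed above the filter. Hmox2 (chromosome 16, 4726361 to 4766742), the constitutive heme oxygenase, was that gene, with 23.2, 25.9 and 38.2 in WT and 22.3, 29.4 and 41.5 in KO libraries. Its fold change was 0.10 (-0.33 to 0.53), but 46% of its stretches of 31 bases are shared with other genes, 37% with Cdip1. Hmox1 was at 3 reads or fewer in all 12 libraries and Nqo1 in 8 of 12, and Srxn1 was at 3 reads or fewer in all 12, so no difference can be read from Hmox1 and Srxn1 at this depth. Nqo1 had 0, 1.17 and 5.14 in WT and 0.836, 3.27 and 5.67 in KO libraries, and the labels overlapped (two-sided exact permutation test, p = 0.0996, unadjusted). For the 9 members below the filter, the two-sided exact permutation test gave an unadjusted p of 0.0238 for Srxn1, whose values are all at 3 reads or fewer, and p between 0.0996 and 0.922 for the other 8, which include Gpx7, Txnrd2, Gss, Nqo2, Mgst1 and Mgst3. Gpx7, a peroxidase of the endoplasmic reticulum, was above 3 reads in both libraries numbered 3, at 7.42 in WT and 5.38 in KO, and in no other library.

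Glutathione S-transferases attach glutathione to reactive compounds, and 0 of the 2 tested genes passed the threshold. Gstm1 (chromosome 3, 108012255 to 108017973) had 18.1, 22.4 and 28.7 in WT and 9.40, 17.0 and 34.0 in KO libraries. KO replicate 6 had the highest value of all libraries and KO replicate 2 the lowest, and the fold change was -0.37 (-0.92 to 0.19). Without KO replicate 6 it was -0.56 (limma, unadjusted p = 0.0298), and without KO replicate 2 it was -0.21 (limma, unadjusted p = 0.406). Gstp1 had the smallest spread of the members, an SD of 0.15 on the log2 scale, with values between 11.1 and 16.6 and a fold change of -0.09 (-0.52 to 0.33). Both genes have close copies, and 28.8% and 38.5% of their stretches of 31 bases are found in other genes, although Gstp2 was listed at 0 in every library.

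The repair of oxidized methionine by Msra and Msrb1, and the redox-sensitive chaperone Park7, made up the last group, with 0 of 3 past the threshold and fold changes between 0.10 and 0.20. Park7 (chromosome 4, 150897133 to 150914437) had 36.3, 51.7 and 76.0 in WT and 47.7, 58.9 and 69.1 in KO libraries, with every KO value inside the WT range. Its fold change was 0.12 (-0.28 to 0.52). Msrb1, a selenoprotein, had the largest spread of the members above the filter, an SD of 0.92 on the log2 scale. It had 4.53, 6.89 and 26.8 in WT and 4.06, 12.6 and 25.6 in KO libraries. With this spread, its fold change of 0.20 had an interval from -0.81 to 1.20.

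**Figure D4:**
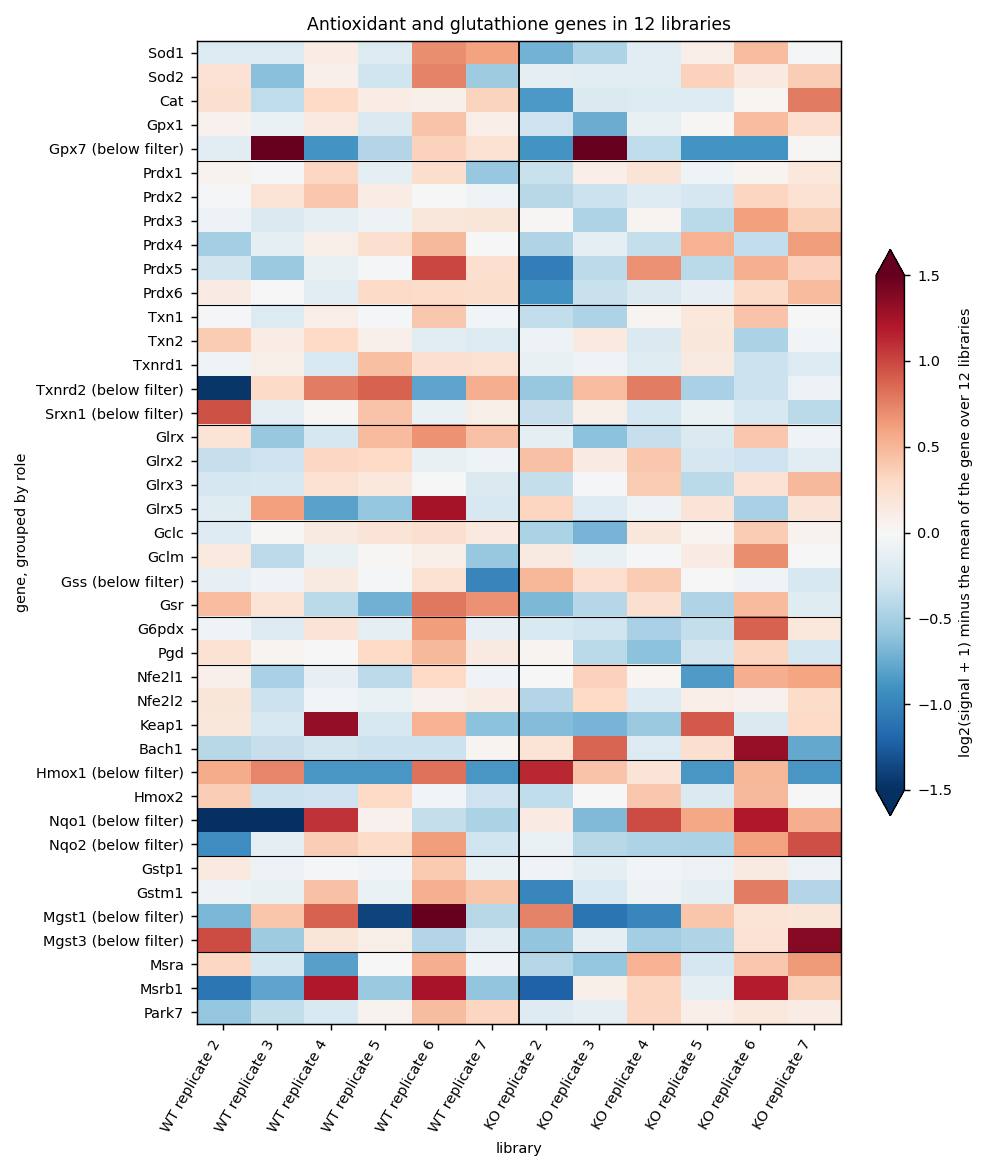
Deviation of log2(signal + 1) from the mean of each gene over 12 libraries (color scale from -1.5 to 1.5), for all 41 members grouped by role (rows) in WT and KO libraries (columns, parted by the line). The columns of replicate 6 in both labels are redder than the others, and the median difference of the 32 tested members between KO and WT is -0.08.

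A further pattern among the members ran across labels. Of the 32 members tested, 11 had their highest value in WT and in KO in the library numbered 6 (34.4%), whereas 7.42% of all genes tested did. These 11 were Sod1, Gpx1, Txn1, Glrx, Gclc, Gsr, G6pdx, Pgd, Gstp1, Gstm1 and Msrb1. The signal of all 41 members summed to 2641 in WT replicate 6 and 2535 in KO replicate 6, and to 1567 to 2268 in the other 10 libraries. G6pdx illustrates it, with 28.5 and 34.2 in the libraries numbered 6 and 12.6 to 20.7 in the others. Not all members followed: KO replicate 6 had the lowest value of the 12 libraries in 2 tested members, Txn2 (14.9) and Txnrd1 (131), and WT replicate 6 in 0. The libraries numbered 6 are also those in which the summed granule list was highest (2195 and 2376, from 4 of its 10 genes, Mpo, Elane, Prtn3 and Ctsg, while S100a8, S100a9, Ltf, Ngp, Camp and Fcnb stayed under 3 in every library). Other values set these libraries apart as well. WT replicate 6 and KO replicate 6 had the lowest summed signal of the LSK and stem cell list in their labels (1878 and 1518), the highest of the macrophage and monocyte list (203 and 202) and the highest share of Lars2 (36.2% and 35.1%). They were also shallow, at roughly 1441190 and 1389840 reads, but so were WT replicate 7 (1484250) and KO replicate 7 (1235090). The part of each of these traits in the pattern was not tested, and the traits cannot be told apart here. Correlations over the 12 libraries are not given, because these libraries stand apart from the others.

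**Figure D5:**
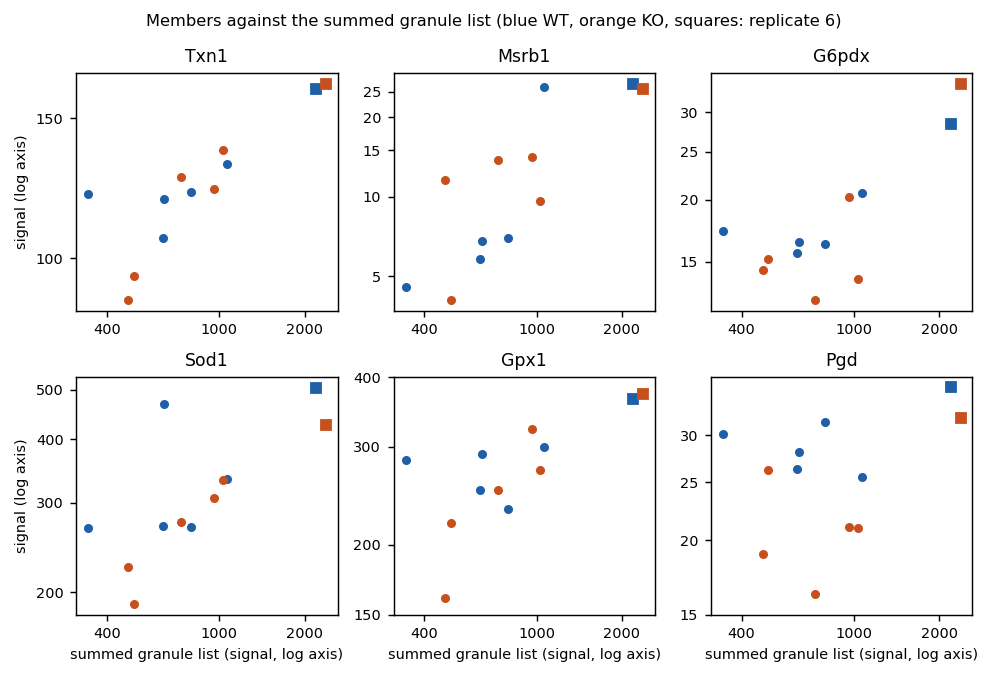
Signal of 6 members against the summed signal of the granule list (both axes log), with blue for WT, orange for KO and squares for replicate 6. All 6 are among the 11 members whose highest value in each label was that of replicate 6, so the height of the squares follows from this choice. The squares are at the upper right in all 6 panels, at list sums of 2195 and 2376, and the other 10 libraries lie at 344 to 1063.

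A wider list of 77 antioxidant and glutathione genes that are not members, such as transporters of cystine, selenoproteins and further transferases, gave 76 genes in the table and 42 above the filter. Of these, 1 was called at an unadjusted p under 0.05 (2.38%, beside 3.67% of all genes), 0 at an adjusted p, and the median log2 fold change was -0.02. The gene was Lancl1, a glutathione-binding protein. It had 51.3, 56.4 and 94.4 in WT and 20.7, 38.3 and 81.1 in KO libraries, with overlap between the labels and a log2 fold change of -0.65 (SE 0.262, 95% interval -1.21 to -0.09). The unadjusted p was 0.0255 and the adjusted p 0.9996 (limma), and the two-sided exact permutation test gave p = 0.0584. The call was lost without WT replicate 6 (fold change -0.52), KO replicate 3 (-0.48) or KO replicate 4 (-0.58), without both libraries numbered 6 (-0.50) and with totals without Lars2 (-0.59), while the fold change stayed below 0.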

How the data were processed

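RNA-seq of LSK cells of 12 mice (6 WT, 6 Fancg KO) was used, with groups and replicate numbers from the library labels. The authors deposited 1 table of signal, taken to be estimated reads over a size factor, and the submitters' processing notes name kallisto. The mouse genome build, annotation and normalization are not given in the sources used here. All columns were matched, with 0 unused.

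Values were not rescaled. Genes whose mean signal reached 10 were tested on log2(signal + 1) with limma 3.58.1 (trend, two-sided, Benjamini-Hochberg over 8887 genes) in R 4.3.3. Single genes were tested with exact permutation tests (numpy 2.4.6). Intervals are 95%. Count tests were not used, since few values were whole multiples of the value of 1 read. The fit was checked on simulated data.

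Members and lists were chosen with earlier results of these data known. Genes named by rule had an unadjusted p under 0.05, labels that did not overlap or the highest level per kilobase of their role, or were NRF2 axis regulators, and for the wider list had an unadjusted p under 0.05. Other genes were named after their values were seen. Positions are from GENCODE M21 (GRCm38), where all 35999 names were found. Each library is 1 mouse, so p-values measure the spread between mice. In the main comparison this spread includes any variation shared by libraries of the same number.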

Additional observations from a re-analysis of the deposited data

Results flagged for a closer look

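Each member was searched for a library far from the others of its label, by Dixon's criterion for 6 values. The criterion was applied to the signal itself and not to log2(signal + 1). This gave 9 libraries in 82 groups of 6. A rate of 1 in 20 would give about 4.1, but that rate holds for normally distributed values and independent groups. Signal was not shown to be normal and the groups share libraries, so no excess over chance can be read from the count. Gclm in KO replicate 6 was 57.5, against 32.5 to 38.5 in the other KO libraries. G6pdx in KO replicate 6 was 34.2 (others 12.6 to 20.3), Gstm1 in KO replicate 6 was 34.0 (others 9.40 to 18.5), and Gstp1 in KO replicate 6 was 13.8 (others 11.1 to 12.1). Bach1 in WT replicate 7 was 42.9 (others 31.1 to 34.3). Gpx7 stood out in both libraries numbered 3, at 7.42 in WT (others 0 to 1.36) and 5.38 in KO (others 0 to 0.870). Mgst3 was 8.43 in WT replicate 2 (others 2.31 to 4.40) and 11.2 in KO replicate 7 (others 2.16 to 4.54). Gpx7 and Mgst3 are below the filter and rest on 7 reads or fewer per library.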

How the results depend on the processing

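No member and no gene of the table had an adjusted p under 0.05 under any of the alternatives tried, while 326 genes had an unadjusted p under 0.05. The count of members at an unadjusted p under 0.05 was 1 and became 0 with a pseudocount of 5 and with totals without Lars2. Without WT replicate 3 and KO replicate 7 it was 2 (Bach1 and Cat). It was also 0 with a filter at a mean signal of 50, which removed Pgd (mean 26.1) from the test. Leaving out 1 library gave 0 to 2. The count of all genes at this level was 836 without a filter, 91 with the filter at 50 and 124 with totals without Lars2. The count of wider-list genes was 3 without a filter (Blvra, Ccs and Lancl1), 0 with totals without Lars2 and 0 without both libraries numbered 6 (an alternative added after the data were seen), and 0 to 2 when 1 library was left out (Ggt5 joined Lancl1 without KO replicate 6). The cause was not tested. The median of the members ran from -0.12 to 0.0092 when 1 library was left out and from -0.17 to -0.03 otherwise. Pgd was lower in KO in every fit that tested it and kept its call in 4 of 12 fits without 1 library.

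For each gene tested, the deviation of log2(signal + 1) from the mean of its label was taken. Between same-numbered libraries of the 2 labels, these deviations correlated at 0.252, 0.212, 0.091, 0.171, 0.362 and 0.086 (numbers 2 to 7). Their mean was 0.196, against -0.04 for different numbers. By these deviations, 9 of 12 libraries correlated best with their own number in the other label. Numbers 4 and 7 stayed under the 0.1 required of every pair and no source says what a number marks, and the numbers were not used as pairs in the main comparison. With the replicate number as a block, 476 genes, 1 member (Pgd, unadjusted p = 0.0368) and 1 wider-list gene were called. The exact sign-flip test of the 6 same-numbered differences of Pgd, all below 0, gave p = 0.0312, the smallest possible. It was run because limma had called Pgd, so it is no separate evidence, and it takes same-numbered libraries as pairs. Glrx, which was not tested in this way, was also lower in KO in all 6. Depth limits members at few reads, and 9 of 41 were below the filter.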
